A study of Homo sapiens with 4 samples.

Results

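The 10 intermediate filament genes described here were measured in HEK293A cells, a human embryonic kidney line. They are the keratin genes KRT8, KRT10, KRT17, KRT18 and KRT19, the vimentin gene VIM, the nestin gene NES, the neurofilament genes NEFL and NEFM, and the lamin gene LMNA. They were chosen by symbol, with earlier results of these data known. All 10 were found among the 58736 features of each library. The study examined gene regulation by FEN1, a flap endonuclease, guided by hairpin DNA probes. Wells of both groups were transfected with 1 µg of a FEN1 plasmid. Probes (500 pmol) followed after 48 h, and RNA was prepared after 72 h. Of the 4 libraries, 2 were negative controls (replicates 1 and 3), and in the other 2 the probe was NT1_hp2 (replicates 2 and 3). Since both groups carried the plasmid, no library shows cells without it. The labels used here name neither the target of NT1_hp2 nor the content of the control probe. The labels do not say whether replicates were separate cultures. The p-values therefore measure library-to-library spread only, which could be technical.

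Intermediate filaments are the ropelike part of the cytoskeleton. Keratins assemble only as pairs of a type I and a type II chain and are known from epithelial cells, while vimentin is known from mesenchymal and cultured cells, nestin from neural progenitors and neurofilament proteins from neurons. Lamins form the meshwork under the inner nuclear membrane. KRT17 is a type I keratin best known from hair follicles, wounded skin and stressed or dividing epithelium.

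The deposited values were FPKM, reads scaled to the exon length of a gene and to library size, and corresponded to 12506203 to 14908687 reads per library. The mitochondrial share of reads was 5.92% to 6.06% for negative control libraries and 4.29% to 4.33% for NT1_hp2 libraries. The chi-square per degree of freedom between libraries was 5.68 for the negative control pair and 2.69 for the NT1_hp2 pair, so neither pair was a repeat of 1 library, and 13.2 to 28.2 between groups. The line is a kidney line. Of the 10 kidney markers listed 7 stayed below 1 FPKM in every library, 2 of them at 0 throughout. CDH16 was at 0 in every library, PAX8 did not exceed 0.141 FPKM, PAX2 did not exceed 0.542 FPKM, and the epithelial adhesion genes CDH1 and EPCAM did not exceed 0.135 and 0.447 FPKM. From the same lists SIX2 (mean 7.28 FPKM), WT1 (2.25), LHX1 (1.93), SPINT1 (12.5), TJP1 (7.56), OCLN (4.01) and ESRP2 (3.69) were expressed. PTPRC, the pan-leukocyte marker, was at 0 in every library, and the endothelial marker PECAM1 did not exceed 0.0545 FPKM.

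KRT17 has near copies in the genome, so its sequence was compared with theirs before its reads were used. Of the 50-base stretches of its principal transcript 16.0% also occur in a transcript of another gene, mostly the KRT17P pseudogenes, and of its 100-base stretches 0.3% do. The 90-base coding stretch shown here (bases 839 to 928 of the coding sequence) is the one that differs most from its nearest copy among 8 KRT17P pseudogenes and the paralogs KRT14 and KRT16. It is set against the best match in KRT14, in the closest pseudogene KRT17P1 and in KRT16, from GENCODE 29 transcripts on GRCh38, 5′ to 3′ along the transcript. Capitals in the copies mark bases that differ from KRT17, and capitals in KRT17 mark the 2 bases at which all of the copies shown differ.
KRT17: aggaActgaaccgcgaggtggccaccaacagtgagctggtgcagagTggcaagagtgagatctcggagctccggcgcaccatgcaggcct
KRT14: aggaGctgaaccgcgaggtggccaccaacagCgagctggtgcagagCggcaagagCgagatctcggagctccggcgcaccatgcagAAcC
KRT17P1: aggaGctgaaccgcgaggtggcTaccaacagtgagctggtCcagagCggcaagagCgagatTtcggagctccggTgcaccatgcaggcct
KRT16: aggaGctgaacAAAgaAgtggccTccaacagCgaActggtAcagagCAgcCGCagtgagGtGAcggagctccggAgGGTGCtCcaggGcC
The copies differ from KRT17 at 7 bases in KRT14, 7 in KRT17P1 and 26 in KRT16. All 4 genes lie on chromosome 17. The 8 KRT17P rows together held 1 to 5 reads per library, which is 0.187% to 1.57% of the reads of KRT17. KRT14 had 0 reads in both control libraries and 6 and 4 reads in the NT1_hp2 libraries, and KRT16 had at most 1 read. Whether the few KRT14 reads belong to KRT17 was not tested.

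Upstream sequence is shown for the members with the largest falls, NES and LMNA, and for VIM, which did not pass the test. Promoter entries of RefSeq (GRCh38.p14) matched 5 of the 10 members, KRT8, KRT10, VIM, NES and LMNA. The stretches are the 250 bases before the annotated start, 5′ to 3′ on the strand of the gene. The first of the 3 LMNA entries is used. Capitals mark the GC box GGGCGG, the TATA box TATAAA and the CCAAT box CCAAT on either strand.
NES, chr1:156677408-156677657, minus strand: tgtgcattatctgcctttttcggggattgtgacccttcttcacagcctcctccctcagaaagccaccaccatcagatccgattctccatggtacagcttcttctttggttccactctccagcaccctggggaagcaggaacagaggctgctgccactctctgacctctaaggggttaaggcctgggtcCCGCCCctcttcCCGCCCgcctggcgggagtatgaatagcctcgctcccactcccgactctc
LMNA, chr1:156082323-156082572, plus strand: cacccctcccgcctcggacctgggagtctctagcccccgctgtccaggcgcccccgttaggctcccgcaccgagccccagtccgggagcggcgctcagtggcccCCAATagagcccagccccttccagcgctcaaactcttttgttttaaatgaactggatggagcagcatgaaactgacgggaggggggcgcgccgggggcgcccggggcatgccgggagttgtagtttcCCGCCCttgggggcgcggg
VIM, chr10:17227991-17228240, plus strand: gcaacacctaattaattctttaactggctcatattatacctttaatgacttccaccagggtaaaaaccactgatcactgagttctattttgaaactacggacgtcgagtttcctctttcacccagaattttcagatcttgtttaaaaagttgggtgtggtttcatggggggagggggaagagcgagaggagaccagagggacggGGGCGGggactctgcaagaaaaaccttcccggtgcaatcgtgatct
The NES stretch holds 2 GC boxes, that of LMNA 1 GC box and 1 CCAAT box, and that of VIM 1 GC box. LMNA entries 2 and 3, not shown, hold 1 and 2 GC boxes and no CCAAT box, with GC contents of 68.4% and 72.4%. Of 35116 RefSeq promoter stretches of this length 42.6% hold a GC box, 32.0% a CCAAT box and 10.7% a TATA box. Their median GC content was 58.0%, against 58.0% for NES, 68.8% for LMNA and 46.0% for VIM. These matches describe the letters and are not binding sites.

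VIM and KRT8 were the most abundant members. VIM, the type III filament gene (chromosome 10, 17228259 to 17237593), had 100.4 and 98.3 FPKM in negative control replicates 1 and 3 and 109.9 and 103.3 FPKM in NT1_hp2 replicates 2 and 3. KRT8, the type II keratin gene of simple epithelia (chromosome 12, 52897187 to 52949954), had 111.9, 99.0, 84.2 and 86.6 FPKM in the same order. Their ranges over the 4 libraries overlapped, KRT8 ranking above VIM in both control libraries and below it in both NT1_hp2 libraries. KRT18, the usual partner of KRT8, followed at a mean of 64.0 ± 11.2 FPKM (SD over 4 libraries), NEFL at 51.4 ± 4.91, LMNA at 29.3 ± 6.91 and KRT19 at 22.5 ± 2.89. KRT17 (10.2 ± 2.96), KRT10 (7.85 ± 0.862) and NES (6.90 ± 2.04) had overlapping ranges. In negative control replicate 1 KRT17 ranked 9th of the 10 members, and in both NT1_hp2 libraries 7th. NEFM was last in every library, at 0.683 ± 0.149 FPKM, or 34 to 53 reads, against a limit of 3 reads at 0.0476 to 0.0545 FPKM for a gene of its length. That limit covers counting error only. By mean FPKM, VIM ranked 238th and NEFM 17873rd of all features.

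**Figure D1:**
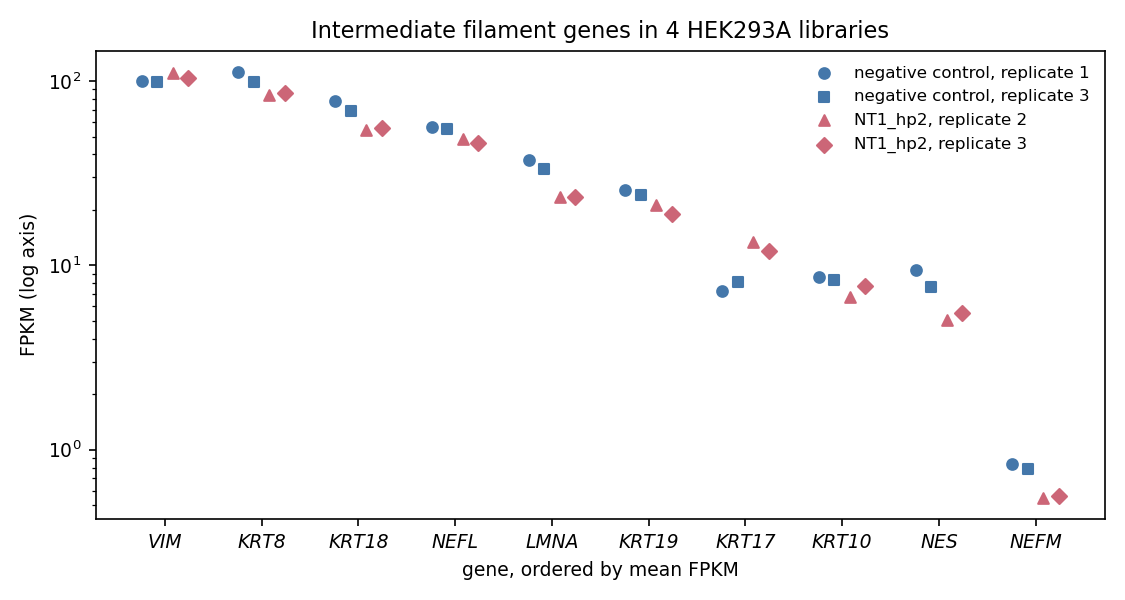
FPKM of the 10 intermediate filament genes in each library on a log axis, ordered by mean level; circles and squares are the 2 negative control libraries, triangles and diamonds the 2 NT1_hp2 libraries. KRT17 and VIM are the members whose NT1_hp2 points both lie above the control points, and the other 8 lie below.

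These levels depend on the length that the reads are divided by. FPKM here divides by every annotated exon base of a gene. For KRT8 that is 6881 bases, 3.24 times its principal transcript of 2126 bases. The same ratio was 2.42 for VIM, 2.19 for LMNA, 2.06 for KRT18 and 1.90 for KRT17, against 1.00 for NES and 1.01 for KRT10. Divided by the principal transcript, KRT8 was the most abundant member in all 4 libraries, at 308.8 ± 41.2 on the FPKM scale, before VIM at 248.8 ± 12.1. All reads of a gene were kept in this division, also those outside the principal transcript. Of the 50-base stretches of the principal transcripts 36.9% for KRT8 and 38.2% for VIM occur in transcripts of other genes, so this order is uncertain. On the scale of the principal transcript LMNA (64.3 ± 15.1) stood before NEFL (54.6 ± 5.21), with overlapping ranges. KRT17 (19.3 ± 5.62, lowest 13.8) stood apart from KRT10 (highest 8.73) and NES (highest 9.46). The ratio of raw FPKM between groups does not depend on this length. The difference in log2(FPKM + 1) does, through the added 1.

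**Figure D2:**
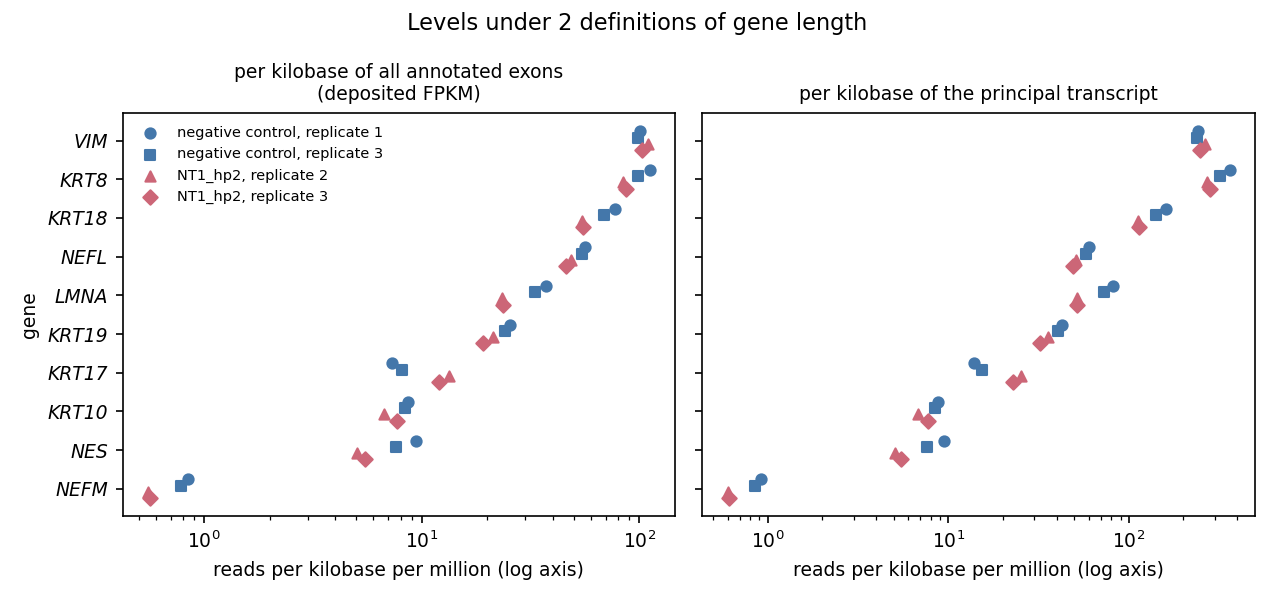
Levels of the 10 genes in each library on log axes, per kilobase of all annotated exons (left, the deposited FPKM) and per kilobase of the principal transcript (right); symbols mark the library. KRT8 moves past VIM, and KRT17 separates from KRT10 and NES, on the right.

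KRT17 rose in NT1_hp2 while LMNA, NES and KRT18 fell. Of the 9 members with enough signal to test (at least 1 FPKM in at least 2 libraries) 1 was higher and 3 were lower, and 5 did not pass (limma-trend, Benjamini-Hochberg adjusted p under 0.05 over 16362 genes). Over all tested genes 5.00% were called higher and 8.92% lower (818 and 1460). The split depends on the scaling, with 1484 and 1428 under upper-quartile factors and 1532 and 1327 under plain totals. The median log2 fold change was −0.29 for the members tested and −0.008 for all genes tested, and −0.12 and −0.014 with length and GC trends removed. In all 10 members the groups did not overlap, 2 higher and 8 lower in NT1_hp2. This is common in these libraries, where both NT1_hp2 libraries lay above both control libraries in 32.0% of tested genes and below them in 34.8%.

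KRT17 (ENSG00000128422, chromosome 17, 41619441 to 41624842) had 7.28 and 8.11 FPKM in the control libraries and 13.4 and 12 FPKM in NT1_hp2. The means were 7.70 ± 0.590 and 12.7 ± 0.941 FPKM (SD, n = 2 each), a 1.65-fold higher level, and the difference in log2(FPKM + 1) was 0.66 with an SE of 0.088 (adjusted p = 0.034 by limma-trend). The values rest on 328 and 319 reads against 591 and 535. Among the 594 called increases with a mean of at least 5 FPKM it was the 58th largest, and among all 818 called increases the 195th. Its adjusted p was above the threshold without negative control replicate 1 (0.106), NT1_hp2 replicate 2 (0.14) or NT1_hp2 replicate 3 (0.0929), with log2 fold changes of 0.59, 0.59 and 0.73. In those 3 fits 0 to 3 of all genes were called higher and 0 to 10 lower.

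Other type I keratins and the type II keratin of simple epithelia had lower values. KRT18 (chromosome 12, 52948871 to 52952901) had 77.7 and 68.8 FPKM in the control and 54.4 and 55.4 FPKM in NT1_hp2. It fell to 0.75 of its control level (log2 fold change −0.41, SE 0.083, limma-trend adjusted p = 0.044). KRT8 gave 105.4 ± 9.09 and 85.4 ± 1.73 FPKM without passing (−0.30, 95% interval −0.52 to −0.08, adjusted p = 0.0776). KRT19, a type I keratin of ducts and simple epithelia, had 25.5 and 24.2 FPKM in the control and 21.2 and 19.1 FPKM in NT1_hp2 without passing (−0.29, interval −0.49 to −0.09, adjusted p = 0.067). KRT10, the type I keratin of differentiated epidermis, had 8.65 and 8.35 against 6.70 and 7.69 FPKM (−0.22, adjusted p = 0.144). KRT8 and KRT18 lie side by side on opposite strands and share 525 annotated exon bases, 7.6% of those of KRT8 and 16.3% of those of KRT18. The library kit does not mark strand, so reads there cannot be assigned to either gene.

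Processed copies of KRT8 and KRT18 drew few reads. Of 50 KRT8P rows 28 were at 0 in every library, and together they held 186 to 232 reads per library, or 1.71% to 2.74% of the reads of KRT8. The 67 KRT18P rows held 64 to 109 reads, or 1.78% to 3.92% of those of KRT18. KRT8P12 (2.37 to 3.03 FPKM), KRT8P33 (1.12 to 1.39), KRT8P3 (0.538 to 1.46) and KRT18P31 (0.323 to 1.72) were the copies with a mean of at least 1 FPKM, and none of these 4 passed the test. Of the 50-base stretches of the principal transcripts 36.9% for KRT8 and 47.6% for KRT18 occur in transcripts of other genes, so the division of reads between parents and copies is uncertain. Those of KRT18 include the stretch it shares with KRT8. For LMNA and NES 0.0% do.

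The lamin and the progenitor filament gene had the largest falls of the 10. LMNA, which encodes lamins A and C (chromosome 1, 156082573 to 156140089), had 37.1 and 33.2 FPKM in the control and 23.5 and 23.6 FPKM in NT1_hp2. It fell to 0.669 of its control level (log2 fold change −0.56, SE 0.077, limma-trend adjusted p = 0.034). NES (chromosome 1, 156668763 to 156677397) had 9.46 and 7.60 FPKM in the control and 5.04 and 5.49 FPKM in NT1_hp2. It fell to 0.617 of its control level (−0.60, SE 0.117, adjusted p = 0.0416), and the 2 control libraries were further apart than the 2 NT1_hp2 libraries. Like KRT17 and KRT18, both genes were past the threshold in the fit without negative control replicate 3 and in no other fit that leaves out a library. The adjusted p over the 4 such fits was 0.0398 to 0.148 for LMNA, 0.0416 to 0.173 for NES and 0.0408 to 0.223 for KRT18.

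VIM and the neurofilament genes did not pass. VIM gave a log2 fold change of 0.10 (95% interval −0.09 to 0.29, adjusted p = 0.373), so the interval leaves room for a small change either way. It shares 641 exon bases with the antisense gene VIM-AS1, which had 2.44 to 3.20 FPKM. NEFL, the light neurofilament chain (chromosome 8, 24950955 to 24957110), had 56.6 and 54.6 FPKM in the control and 48.4 and 46.3 FPKM in NT1_hp2 (−0.23, interval −0.40 to −0.06, adjusted p = 0.0778). NEFM, the medium chain, was below the level needed for the test, with 53 and 43 reads in the control and 34 and 35 in NT1_hp2. The ratio of NEFM reads, scaled to the library size that the deposited values imply, was 0.684 (95% exact binomial interval 0.495 to 0.942, counting error only). The antisense gene AF106564.1 overlaps 38.9% of the NEFM exon bases.

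**Figure D3:**
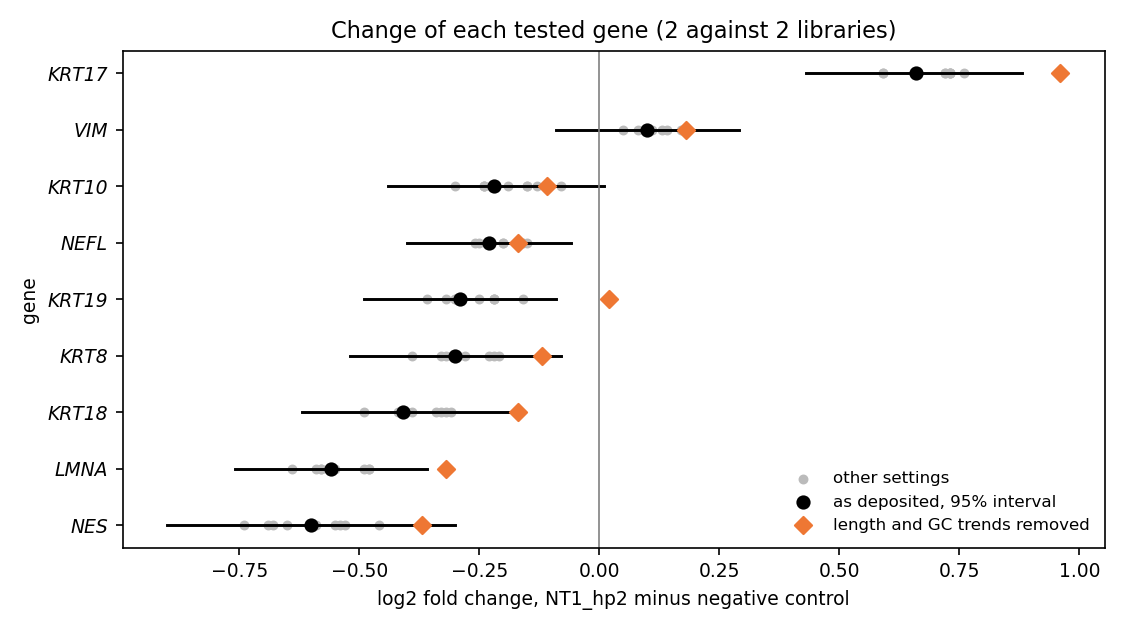
Log2 fold change of each tested gene, NT1_hp2 minus negative control, with black points and bars for the values as deposited and their 95% limma intervals, diamonds for values after removal of length and GC trends, and grey points for the other settings. KRT17 stays between 0.59 and 0.96 in every setting, and KRT19 lies at 0.02 once the trends are removed.

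The number of members called depended on which other genes entered the fit. In a fit of protein-coding genes only, 6 of the 9 members were lower (KRT8, KRT18, KRT19, NES, NEFL and LMNA) and KRT17 was higher, against 24.2% and 14.6% of the 12149 genes in that fit. The same 6 were lower with limma-voom on the recovered reads, which called 19.9% of all genes lower and 14.4% higher.

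GC content moved with the changes. The median log2 fold change was 0.24 for tested genes with a GC content under 40%, −0.08 for those between 50% and 55%, −0.30 between 60% and 65% and −0.36 from 65% upwards. LMNA (61.7%), KRT17 (60.7%), KRT19 (60.4%), NES (59.3%), KRT8 (57.7%) and KRT18 (57.3%) are GC-rich, and VIM (52.7%), KRT10 (51.3%) and NEFL (50.8%) less so. Of the 1795 tested genes with a GC content of 60% to 65%, the range that holds KRT17, 26.6% were called lower and 0.669% higher. In that range 1.23% had a log2 fold change at or above that of KRT17. Because KRT17 was chosen with earlier results of these data known, this share does not measure how unusual it is.

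When smooth trends with length and GC content were removed from each library, KRT17 was at 0.96 (limma-trend adjusted p = 0.0466) and was the member that passed, where 0.654% of genes were called higher and 1.03% lower. LMNA was then at −0.32 (adjusted p = 0.0605), NES at −0.37 (0.0867), KRT18 at −0.17 (0.116), KRT8 at −0.12 (0.252) and KRT19 at 0.02 (0.912). In that fit 0 members were called lower by limma-trend and 4 with lower values had an unadjusted p under 0.05, while limma-voom, run on the reads without this correction, called 6. The falls of LMNA, NES and KRT18 were thus smaller, by more than 1.5 times, once the trend was taken out, and the rise of KRT17 was larger.

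**Figure D4:**
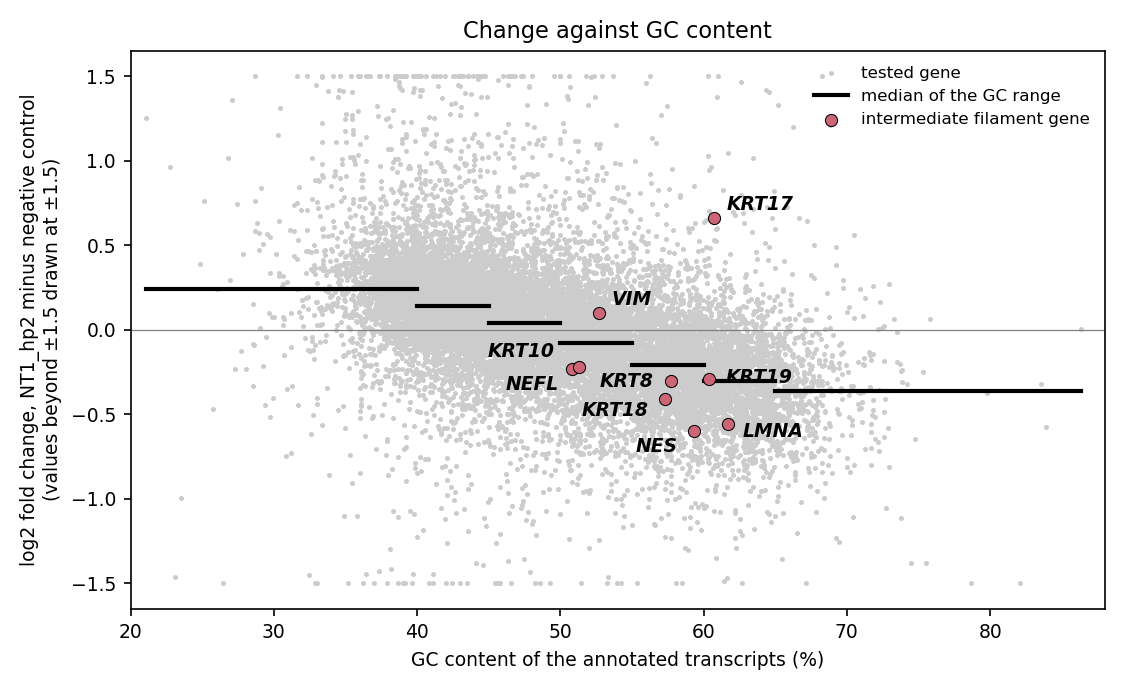
Log2 fold change of every tested gene against the GC content of its annotated transcripts in percent, with black bars at the median of each GC range and the 9 tested intermediate filament genes marked. The medians run from 0.24 to −0.36, most members lie near or below them, and KRT17 lies at 0.66 where the median is −0.30.

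Ratios within a library do not depend on library scaling. With 2 libraries against 2, an exact two-sided permutation test cannot give less than 0.333, so none of these ratios can pass a threshold. The FPKM ratio of KRT8 to KRT18 was 1.44 and 1.44 in the control and 1.55 and 1.56 in NT1_hp2 (exact permutation p = 0.333). The ratio of all type II to all type I keratins was 0.945 and 0.908 in the control and 0.880 and 0.923 in NT1_hp2 (exact permutation p = 0.667), and its groups overlapped. The size of this ratio depends on the gene length used. Per principal transcript KRT8 had a mean of 308.8, against 131.9 for KRT18, 37.8 for KRT19, 19.3 for KRT17 and 7.92 for KRT10. The summed ratio was not calculated on that scale. KRT17 made up 6.11% and 7.39% of the type I keratin FPKM in the control and 13.9% and 12.7% in NT1_hp2. Relative to KRT19, KRT17 stood at 0.286 and 0.335 in the control and at 0.629 and 0.631 in NT1_hp2, and relative to KRT18 at 0.0937 and 0.118 against 0.246 and 0.217. These last comparisons were chosen after the values were seen.

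Outside the keratins, the ratio of VIM to NES was 10.6 and 12.9 in the control and 21.8 and 18.8 in NT1_hp2. LMNA to LMNB1, the lamin B1 gene, stood at 0.512 and 0.461 against 0.416 and 0.398. NEFM to NEFL stood at 0.0148 and 0.0143 against 0.0114 and 0.0122. Each of these 3 separated the groups with an exact permutation p of 0.333, the smallest possible. Keratins as a class held 39.3% and 38.3% of the FPKM of all 70 intermediate filament genes in the control and 37.9% and 37.8% in NT1_hp2. Lamins held 30.1% and 30.0% against 25.4% and 27.4%, and type III genes, nearly all VIM, 17.6% and 18.5% against 23.4% and 22.0%.

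**Figure D5:**
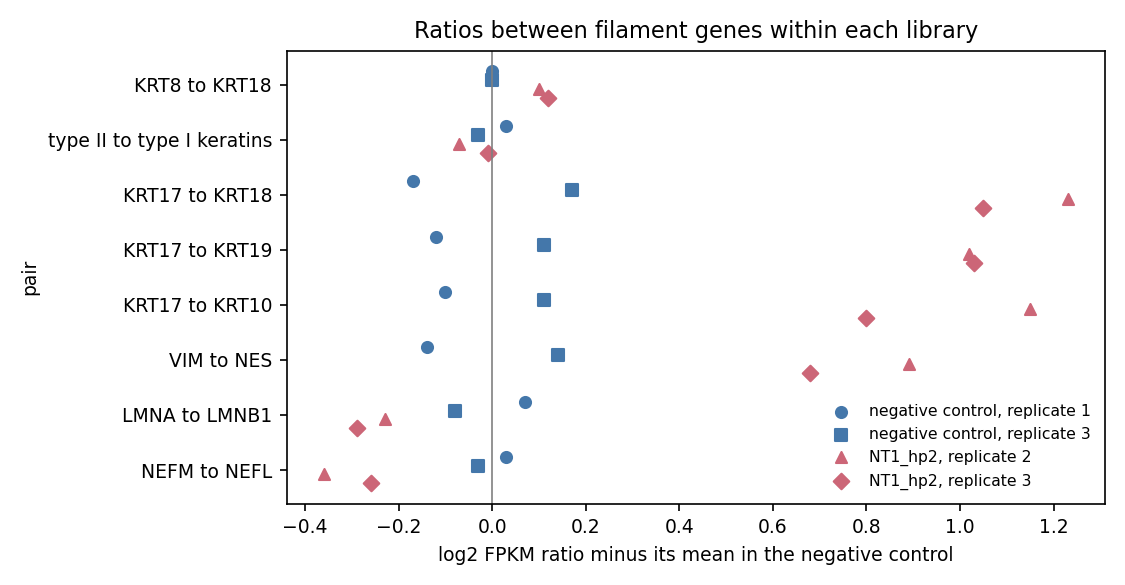
Log2 FPKM ratio of each pair in each library minus the mean of that ratio in the negative control, with symbols marking the library. The 3 pairs with KRT17 lie on average 0.97 to 1.14 above the control mean in NT1_hp2, and the type II to type I ratio overlaps between groups.

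The other keratins were nearly silent, while the B-type lamins were abundant. Of 49 other keratin genes, not counting KRT222, 29 were at 0 in every library and all stayed below 0.5 FPKM, the highest being KRT80 at 0.351 FPKM. KRT222, a keratin-like gene, had 0.811 to 0.961 FPKM. KRT5 and KRT7 were at 0 throughout. Among the 6 other filament genes tested, LMNB1 fell from 72.5 and 72.1 FPKM to 56.4 and 59.2 FPKM (log2 fold change −0.32, limma-trend adjusted p = 0.0444). The lamin B2 gene LMNB2 had 68.0 and 58.8 against 41.7 and 49.1 FPKM without passing (−0.47, adjusted p = 0.0578), and the other 4 did not pass. The synemin gene SYNM had a mean of 6.12 FPKM. The median log2 fold change of the 6 was −0.26, and −0.05 with length and GC trends removed.

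Among genes that anchor filaments and the lamina some fell, to be read against the 8.92% of all tested genes called lower. Of 17 tested linker and desmosome genes 4 fell and 13 did not pass, with a median log2 fold change of −0.03. PLEC, the giant linker plectin, fell from 20.6 and 21.0 to 13.6 and 15.7 FPKM, the keratin-organizing protein gene FAM83H from 16.2 and 15.7 to 9.10 and 11 FPKM, and the junction protein gene JUP from 49.9 and 47.2 to 36.9 and 38.9 FPKM. EPPK1, which encodes epiplakin, fell by 0.48 on the log2 scale. The desmosomal cadherin gene DSG2 had 29 and 32.6 against 38.7 and 35.9 FPKM without passing (adjusted p = 0.091). Of 19 lamina partners and lamin-processing genes 2 fell, a share near that of all genes, with a median of −0.01. They were BANF1, a chromatin-tethering factor of the envelope (86.1 and 70.6 to 46.7 and 47.4 FPKM), and ICMT, which methylates the lamin precursor (29.6 and 25.4 to 19.6 and 21.0 FPKM). The emerin gene EMD did not pass (−0.31, adjusted p = 0.0719).

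Of 15 tested kinases, proteases and chaperones that act on filaments 6 fell, where 8.92% of all tested genes did, with a median of −0.09. The small heat shock protein gene HSPB1 fell from 119.2 and 104.8 to 65.3 and 64.8 FPKM. SFN, the 14-3-3 protein known to bind keratins 17 and 18, fell from 13.3 and 11.2 to 6.87 and 6.03 FPKM (log2 fold change −0.83, limma-trend adjusted p = 0.034). The mitotic kinase gene PLK1 fell by 0.55, the phosphatase gene PPP1CA by 0.57, the caspase gene CASP6, whose product cleaves lamin A, by 0.42 and PRKACA by 0.37 on the log2 scale. After removal of length and GC trends HSPB1 was past the threshold (−0.43, adjusted p = 0.0485), and the other 12 genes named as fallen in these lists, from LMNB1 to PRKACA, were not (adjusted p 0.0517 to 0.392). Among these the log2 fold change stayed close to its former size for CASP6 (−0.43), LMNB1 (−0.27) and ICMT (−0.38). It was smaller for the rest, at −0.50 for SFN and BANF1, −0.34 for PLK1, −0.29 for FAM83H and −0.27 for PPP1CA. PLEC was at −0.25, PRKACA at −0.23, EPPK1 at −0.22 and JUP at −0.07.

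Markers of cell identity were mixed. Of the 20 epithelial markers 11 stayed below 1 FPKM in every library, 2 of them at 0 throughout, and 12 were not tested. None of the 8 tested passed (limma-trend, median log2 fold change 0.05). SPINT1, a serine protease inhibitor gene, was the most abundant at 15.2 and 13.3 against 11.3 and 10.1 FPKM (limma-trend adjusted p = 0.0596). Of the 11 basal epithelial markers, the company in which KRT17 is usually found, 7 were below 1 FPKM in every library, and SFN was the one that changed. The 4 tested had a median of −0.29 (−0.08 with trends removed), and LAMB3, a laminin chain gene, did not pass (−0.20, adjusted p = 0.225). Of 11 tested mesenchymal markers 2 rose and 1 fell, with a median of −0.13. Over all tested genes 5.00% were called higher and 8.92% lower, so so few calls say little about the list. FN1, the fibronectin gene, rose from 51.3 and 53.4 to 67.6 and 67.1 FPKM, TWIST2 rose by 0.40 on the log2 scale and TWIST1 fell by 0.49, while CDH2 did not pass (−0.02). After removal of length and GC trends the log2 fold changes were 0.26 for FN1 (adjusted p = 0.0597), 0.67 for TWIST2 (0.0523) and −0.25 for TWIST1 (0.199). None was past the threshold, and that of TWIST2 was larger than before.

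Some neuronal markers were abundant, but of the 20 listed 9 stayed below 1 FPKM in every library, 2 of them at 0 throughout. The 10 tested had a median log2 fold change of 0.00. UCHL1 had 149.8 to 165.9 FPKM and ENO2 51.8 to 59.4 FPKM, both with overlapping groups. STMN3, a microtubule-regulating stathmin gene, was the 1 of 10 tested neuronal markers that fell (40.8 and 38.6 to 28.6 and 29.7 FPKM). That share is near the 8.92% of all tested genes called lower. The single falls in the 2 short lists that follow are to be read against the same share. Of 4 tested progenitor markers SOX2, a transcription factor found with nestin in neural progenitors, fell from 9.81 and 10.5 to 5.89 and 6.64 FPKM (log2 fold change −0.62, limma-trend adjusted p = 0.034), and MSI1 did not pass (−0.44, adjusted p = 0.0538). The median of the 4 was −0.53, and −0.30 with trends removed. Of 3 tested kidney markers SIX2 fell (8.44 and 8.84 to 5.81 and 6.04 FPKM) and WT1 did not pass (0.02), with a median of −0.01. With trends removed STMN3 was at −0.10, SIX2 at −0.15 and SOX2 at −0.54, none past the threshold (adjusted p 0.253, 0.325 and 0.0603).

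The genes whose pattern lay nearest to that of KRT17 over the 4 libraries were ORC6, TC2N, OGT, POLK and PRKAA2, at Euclidean distances of 0.019 to 0.052 between mean-centred log2(FPKM + 1) values. ORC6 had 12.4 and 13.5 FPKM in the control and 22.2 and 20.0 FPKM in NT1_hp2. With 4 libraries such likeness is common: 1249 of 8478 candidate genes had a Pearson correlation above 0.95 with KRT17.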

How the data were processed

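Libraries came from total RNA of HEK293A cells, seeded at 300000 per well, with 1 µg of RNA in a NEBNext Ultra kit, per the labels' protocols. The authors deposited 1 table per library whose values were taken as FPKM. The headers name no unit, but the values above 0, multiplied by the summed GENCODE 29 exon length, were whole multiples of 1 step per library (100% within 0.01), which gave the reads. The EGFP row has no such length and is not in the totals. The submitters' processing notes name GRCh38.p12, while the aligner, the counter and the library scaling are not stated in the labels or headers used here. The test took genes reaching 1 FPKM in 2 or more libraries and compared log2(FPKM + 1), which understates changes of low genes, with limma 3.58.1 (limma-trend, robust, R 4.3.3) and Benjamini-Hochberg adjustment over all tested genes. The fit was also run on simulated counts with known changes but no length or GC trend, so that run cannot show how it behaves under the trends seen here.

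Groups and replicate numbers came from sample titles. The members and gene lists were chosen with earlier results of these data known. In every other list the members that passed, up to 6 by smallest p, and the 2 most abundant are named, with pseudogene copies of at least 1 FPKM on average and the 5 genes nearest to KRT17. KRT14, KRT16, KRT80, KRT222, SYNM, KRT5, KRT7 and the identity markers given to check the cell line were named after their values were seen. The blood and endothelial list is not reported here beyond PTPRC and PECAM1. GC content is that of all GENCODE transcripts of a gene, and principal transcripts carry the APPRIS tag. Trends were fitted with mgcv 1.9.3. Alternatives were other scalings, filters, pseudocounts and gene sets, limma-voom, trend removal and omission of each library.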

Additional observations from a re-analysis of the deposited data

How the results depend on the processing

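As deposited, 818 genes were higher and 1460 lower. The counts were 1484 higher with upper-quartile factors, 1532 higher with plain totals, 2361 and 3256 (higher and lower) with limma-voom, 1320 and 2273 with at least 5 FPKM, and, added after seeing the data, 1778 and 2938 in protein-coding genes, 1347 and 2235 with at least 300 exon bases, and 107 and 169 with length and GC trends removed. Without the filter limma-trend called 0 and 0 of 36608 genes, with 3150 and 3628 at an unadjusted p under 0.05, where limma-voom on the filtered genes called 2361 and 3256, and 0 members passed in either direction (1 higher and 6 lower at an unadjusted p under 0.05). Leaving out 1 library gave 0 to 541 genes higher and 0 to 1313 lower (1993 and 2373 at an unadjusted p under 0.05 without negative control replicate 1, the fit with 0 calls), and 0 to 1 members higher and 0 to 4 lower. In that case the group left with 1 library is assumed to vary like the other. Members lower numbered 6 with limma-voom, with at least 5 FPKM and in protein-coding genes, and 0 with length and GC trends removed, where KRT19 was at 0.02. The cause was not tested.

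KRT17 passed in 12 of 16 alternatives, and LMNA, NES and KRT18 each passed in 11. The signs of the 9 tested members were the same in all 16, except for KRT19 in 1. Per principal transcript, log2 ratios over the 4 libraries were 1.23 for KRT8 to KRT18, 5.22 for VIM to NES and −0.38 for LMNA to LMNB1, and ranks were 1 for KRT8, 2 for VIM, 4 for LMNA and 5 for NEFL. With 1 FPKM added, the group difference of NEFM to NEFL was 0.01. List medians near 0 changed sign. Linkers were at 0.01 with plain totals. Lamina partners were at 0.06 with upper-quartile factors, 0.07 with plain totals and −0.04 to 0.01 without 1 library. Epithelial markers were at −0.05 with trends removed and −0.02 to 0.10 without 1 library. Kidney markers were at 0.03 with upper-quartile factors, 0.04 with plain totals, 0.17 with trends removed and −0.12 to 0.03 without 1 library. No paired analysis was possible because the groups share only replicate number 3. At the deposited depth the members tested had 203 to 11083 reads per library.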
